A study of Mus musculus with 8 samples.

Results

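Line 6419c5 is 1 of 4 mouse pancreatic ductal adenocarcinoma cell lines whose polyadenylated RNA was sequenced, and it is described here through its 2 libraries, out of 8 libraries in all. Its C1galt1c1-KO library is labelled 6419c5-Tn and its WT library 6419c5. The libraries set against it are those of 6694c2, 2838c3 and 6499c4, each with 1 C1galt1c1-KO and 1 WT library, so that 6 libraries stand on the other side and genotype is balanced between the sides. C1galt1c1, also called Cosmc, encodes the chaperone of the core 1 O-glycan synthase, and cells that lack it carry the short Tn glycan. All lines are labelled pancreatic ductal adenocarcinoma and were kept in high-glucose DMEM with 10% fetal bovine serum. As background, these lines are known as clones from pancreatic tumours of genetically engineered mice. 6419c5 and 6694c2 are known to grow into tumours with few T cells, and 2838c3 and 6499c4 into tumours with many. Each line is a single clone, so the differences below belong to 1 clone and not to a class of tumours.

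A gene was counted as gained in 6419c5 where the lower of its 2 values lay above the highest of the other 6, and as lost where the higher of its 2 values lay below the lowest of the other 6. The values are TPM, shares of a library corrected for gene length that sum to 1000000, and at least 10 TPM was required in every library of the higher side. By this rule 1306 genes were gained and 610 were lost, of 49315 gene identifiers in the table and of 9800 that reached 10 TPM in any library. The gap of a gene is the distance on log2(TPM + 1) between the nearest libraries of the 2 sides, positive for gained and negative for lost genes. KO and WT name the genotype of each library, and elsewhere stands for the 6 libraries of the other lines. The rule chose these genes by their levels in the same 8 libraries, so their levels are given as a description and without a test. Log2 differences of gained and lost genes carry the standard error of the fit but no p-value.

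Pancreatic ductal adenocarcinoma cells descend from the exocrine pancreas and keep much of the keratin and junction programme of a simple epithelium. Hox genes encode transcription factors that set position along the body axis, and Cdx2, Isx and Hnf4g encode transcription factors of the intestinal epithelium. Interferon-stimulated genes encode antiviral and antigen-presenting proteins. They are switched on by transcription factors, among them IRF9, that bind a short element in their promoters, and tumour cells can express them without any added interferon.

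C1galt1c1 itself was read at 16.1 TPM in the KO and 37.9 TPM in the WT library of 6419c5, and at 10.9 to 18.98 TPM in the KO and 37.0 to 54.2 TPM in the WT libraries of the other lines. The KO library was the lower one in 4 of 4 lines, and the transcript was still present in each. On log2(TPM + 1), the 2 libraries of 6419c5 had a Pearson r of 0.976 across genes, against 0.879 to 0.934 between a library of 6419c5 and one of another line. Identifiers without a gene name held 9.69% of all TPM in the KO and 1.05% in the WT library of 6419c5, 12.5% in the KO library of 6694c2 and 0.713 to 1.33% in the other 5 libraries. The part of this share in the results was not tested. The 8 epithelial markers summed to 14711 and 13779 TPM in KO and WT cells of 6419c5, against 13353 to 24167 TPM elsewhere. Krt8 stood at 5736 and 4420.2 TPM in KO and WT cells of 6419c5. Krt18, at 4069 and 3874 TPM, lay below all 6 other libraries, which held 4739 to 6324 TPM. Cldn4 was low at 2.98 and 2.84 TPM, as was Cldn7 at 3.01 and 6.19 TPM. Most defining markers of other cells were near 0 in both libraries, with Ptprc at 0.0097 and 0.0338 TPM, Pecam1 at 0.143 and 0.116 TPM, Col1a2 at 0.0714 and 0.108 TPM, and Prss1, Ins2 and Gcg listed at 0. Above 1 TPM in both KO and WT cells of 6419c5 were Cd68 at 7.63 and 5.49 TPM, Sst at 4.74 and 5.68 TPM, Thy1 at 4.45 and 5.06 TPM and Col1a1 at 3.02 and 3.22 TPM. Below 1 TPM in both libraries were 5 of 6 immune, 4 of 4 endothelial, 5 of 5 acinar, 4 of 5 islet and 5 of 9 fibroblast markers. The immune markers summed to 8.03 and 5.83 TPM in KO and WT cells of 6419c5, against 8.43 to 28.5 TPM elsewhere, and the endothelial ones to 1.14 and 1.16 TPM, against 0.197 to 0.407 TPM. The acinar markers summed to 0 and 0.0694 TPM, against 0 to 0.255 TPM, and the islet ones to 5.69 and 6.61 TPM, against 4.80 to 8.09 TPM. The 9 fibroblast markers summed to 9.44 and 11.9 TPM in KO and WT cells of 6419c5, against 6.22 to 10.1 TPM in the other 6 libraries. The part of these markers in the results was not tested.

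6419c5 was the line with the most gained marker genes when the same rule was applied to each line in turn. It had 1306 gained genes (13.3% of those that reached 10 TPM), against 538 in 6694c2 (5.49%), 707 in 2838c3 (7.21%) and 753 in 6499c4 (7.68%). The order of the lost genes was another one, with 610 in 6419c5 (6.22%), 994 in 6694c2 (10.1%), 297 in 2838c3 (3.03%) and 722 in 6499c4 (7.37%). These counts are of TPM as deposited. After median-ratio scaling 6419c5 had 1020 gained and 1023 lost genes, and the other lines were not counted on scaled values. Most gained genes of 6419c5 cleared the other lines by little: the median gap was 0.22, with quartiles of 0.09 and 0.48. A gap of at least 2 was reached by 59 gained and 8 lost genes in 6419c5, by 10 and 12 in 6694c2, by 3 and 13 in 2838c3 and by 21 and 24 in 6499c4. Without its WT library 6419c5 had 1056 lost genes, and without its KO library 2774 gained genes. With fewer libraries the rule is easier to meet, so such counts cannot fall.

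**Figure D1:**
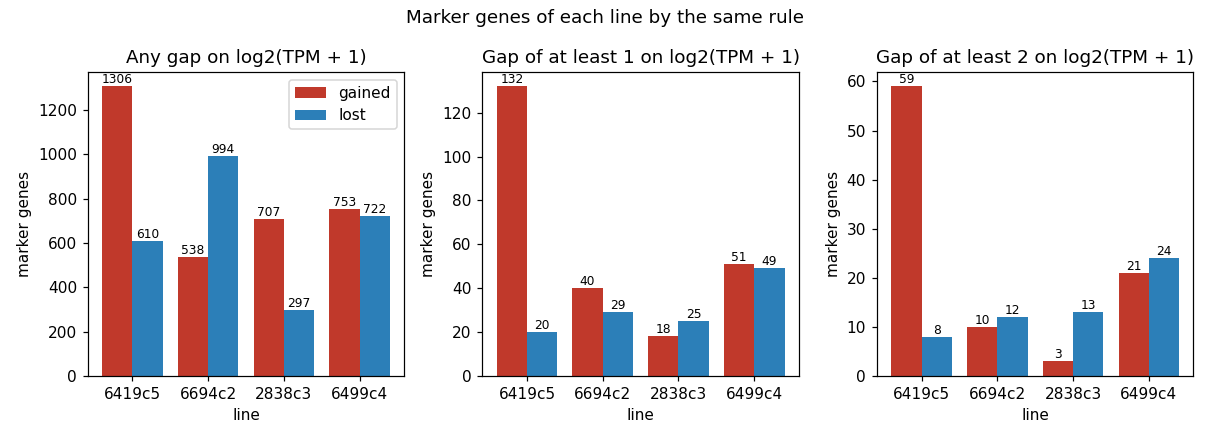
Number of marker genes (y axis) gained (red) and lost (blue) in each line (x axis) by the same rule, for any gap and for gaps of at least 1 and 2 on log2(TPM + 1). 6419c5 had 59 gained genes with a gap of at least 2, against 3 to 21 in the other lines.

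The calls below come from a fit across all genes, which used the same 8 libraries and the same contrast as the marker rule and so is no independent support for it. limma was fitted to log2(TPM + 1) of 14268 genes with line and genotype as terms, and 6419c5 was set against the mean of the other 3 lines. At an adjusted p of 0.05, 1955 genes (13.7%) were called, 1521 higher (10.7%) and 434 lower (3.04%) in 6419c5. Of the 14268 genes, 620 passed the filter of 1 TPM in at least 2 libraries only through 6419c5, and without them 1202 of 13648 were higher (8.81%) and 434 lower (3.18%). Counts of lists are descriptions beside these shares, and genes that passed only through 6419c5 are given no p-value. The same contrast called 1531 genes in 6694c2 (10.7%), 968 in 2838c3 (6.78%) and 1055 in 6499c4 (7.39%). Scaling the libraries by their median ratios moved the median of all genes from 0.08 to -0.03 on the log2 scale and the split to 1250 higher and 641 lower, that is from 77.8% to 66.1% of the calls higher. Differences below, called log2 differences, are therefore given relative to the median of all genes, with their standard error. The p-values test the difference before that median is taken off. The error in this fit is what is left between the 2 libraries of a line once a genotype term common to all lines is removed. These libraries are 1 KO and 1 WT, so the error includes KO minus WT differences that are particular to a line. Neither genotype was repeated in any line, so such differences cannot be told apart from variation among like cultures. A p-value here sets the line difference against both together. With only 1 library of 6419c5 in the fit, 205 genes were called higher and 33 lower without the WT library, and 303 higher and 62 lower without the KO library. Leaving out the WT or the KO library of 6499c4 gave 832 or 856 genes higher and 137 or 138 lower, and leaving out the WT or the KO library of 2838c3 gave 748 or 858 lower. Without the WT library of 6694c2, 257 were lower.

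The gained gene with the largest gap was Rhox5, an X-linked homeobox transcription factor known from testis, epididymis and placenta. It stood at 2752 TPM (KO) and 1924 TPM (WT) in 6419c5, against 3.32 to 21.4 TPM elsewhere (median 6.14), a gap of 6.43. The highest value outside 6419c5 came from the KO library of 6499c4. Rhox5 was the most abundant of the 24 genes with the largest gaps, and it was 1 of 35 germline and cancer-testis genes in the table, of which only 4 passed the filter on low values. Of those 4, Xlr3a was read at 5.42 and 6.14 TPM in KO and WT cells of 6419c5 and at 0 to 0.0563 TPM elsewhere, and Brdt at 1.72 and 1.97 TPM against 0.138 to 0.929 TPM. The fourth, Tdrkh, which encodes a piRNA pathway protein, overlapped the other lines. The remaining list genes did not reach 1 TPM in at least 2 libraries. The second X-linked gene among the 24 was Klhl13, an adaptor of a cullin ubiquitin ligase with a role in mitosis, at 138 TPM (KO) and 180.2 TPM (WT) in 6419c5, against 0.423 to 2.14 TPM elsewhere (median 0.863).

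Promoters of the gained genes with gaps of at least 2 were poorer in CpG than those of other genes. Their median ratio of observed to expected CpG was 0.47 over the 300 bases around the annotated start, against 0.69 over all 14002 promoters, and 28 of 59 (47.5%) had a ratio under 0.4, against 21.3% of all. TATAAA, searched on both strands, was present in 14 of 59 (23.7%), against 9.33% of all. With gaps of at least 1, the 132 gained genes had a median ratio of 0.48, with 44.7% under 0.4 and TATAAA in 15.9%. The 20 lost genes with gaps of at least 1 were alike in CpG, with a median ratio of 0.42 and 9 of 20 under 0.4, and 1 of them held TATAAA. Over all 1288 gained genes with a promoter the values were close to those of all promoters. Their median ratio was 0.70, with 18.6% under 0.4 and TATAAA in 9.32%. Low-CpG promoters are a known feature of tissue-restricted genes, and all these shares are descriptions of the sequence. The spread within the set is wide, as 3 promoters show, each from 250 bases before to 50 after the start of the GENCODE canonical transcript on GRCm39, 5′ to 3′ on the gene's strand, with every CG in capitals. Rhox5 lies on the plus strand at chrX:36891511-36891810, Isx on the plus strand at chr8:75599551-75599850 and Hoxa13 on the minus strand at chr6:52237773-52238072.
Rhox5: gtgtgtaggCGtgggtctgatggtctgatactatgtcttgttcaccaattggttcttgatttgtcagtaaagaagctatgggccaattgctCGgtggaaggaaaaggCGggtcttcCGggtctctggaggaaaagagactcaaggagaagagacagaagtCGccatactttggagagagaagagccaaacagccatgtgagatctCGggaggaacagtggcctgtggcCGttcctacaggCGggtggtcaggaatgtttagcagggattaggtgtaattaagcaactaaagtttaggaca
Isx: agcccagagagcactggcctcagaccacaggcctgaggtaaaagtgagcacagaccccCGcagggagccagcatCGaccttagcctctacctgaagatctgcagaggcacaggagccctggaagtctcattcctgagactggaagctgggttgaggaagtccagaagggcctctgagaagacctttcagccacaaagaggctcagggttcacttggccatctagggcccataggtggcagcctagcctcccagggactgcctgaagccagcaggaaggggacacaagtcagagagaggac
Hoxa13: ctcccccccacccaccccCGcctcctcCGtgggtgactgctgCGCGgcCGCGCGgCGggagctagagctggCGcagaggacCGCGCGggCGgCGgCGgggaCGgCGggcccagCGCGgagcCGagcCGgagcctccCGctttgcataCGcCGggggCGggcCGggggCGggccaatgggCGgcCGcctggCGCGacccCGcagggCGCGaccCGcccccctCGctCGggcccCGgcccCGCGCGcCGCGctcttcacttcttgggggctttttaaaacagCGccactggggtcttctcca
The Rhox5 promoter holds 8 CG, the Isx promoter 2 and the Hoxa13 promoter 44, although all 3 genes were gained with a gap above 3.

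The 24 gained genes of largest gap included Hoxa10, Hoxa13, Hoxb6 and Isx, homeobox transcription factors of the body axis and of the gut. Of 39 genes of the Hox clusters, 8 passed the filter on low values, 7 of them only through 6419c5, so these had to stand higher there and their values are given as a description. Hoxa13, the most posterior gene of its cluster, stood at 43.1 TPM (KO) and 79.0 TPM (WT) in 6419c5, against 0.0327 to 2.99 TPM elsewhere (median 0.805). Hoxa10 stood at 26.4 TPM (KO) and 35.1 TPM (WT) in 6419c5, against 0 to 0.608 TPM elsewhere (median 0.226). Hoxa11, which lies between them, was below 10 TPM but as clearly apart, at 7.49 and 5.99 TPM against 0 to 0.0966 TPM. From the other cluster, Hoxb6 stood at 19.03 TPM (KO) and 25.3 TPM (WT) in 6419c5, against 0 to 0.956 TPM elsewhere (median 0.106). The Hoxa pair lies 16.8 kb apart on chromosome 6. Hoxb3, Hoxb4 and Hoxb5, chosen after their values were seen, stood at 1.31 to 4.36 TPM in 6419c5, and Hoxb8 at 1.01 and 1.02 TPM. With a single 6419c5 library only Hoxa13 passed the filter.

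The intestinal homeobox gene Isx, which in the gut represses genes of carotenoid uptake, stood at 134 TPM (KO) and 241 TPM (WT) in 6419c5, against 0.127 to 12.8 TPM elsewhere (median 0.355). The only other line with more than 1 TPM was 6499c4, at 2.71 TPM in KO and 12.8 TPM in WT cells. The list of pancreatic and endodermal transcription factors had 5 of 23 tested members higher (21.7%, beside 10.7% of all genes), none lower and a median of 0.04, so it did not move as a whole. Cdx2, the master regulator of intestinal fate, was among them, at 163 TPM (KO) and 245 TPM (WT) in 6419c5, against 1.86 to 127 TPM elsewhere (median 13.7, log2 difference 3.26 ± 0.34). Hnf4g, a nuclear receptor of the gut epithelium, stood at 15.0 TPM (KO) and 27.1 TPM (WT) in 6419c5, against 0.149 to 6.62 TPM elsewhere (median 0.481, log2 difference 3.19 ± 0.24). Both genes had their next highest values in 6499c4. Pdx1, which specifies the pancreas and the duodenum, was higher at 74.2 TPM (KO) and 111 TPM (WT) in 6419c5, against 8.95 to 69.1 TPM elsewhere (median 44.6, log2 difference 1.46 ± 0.26). For Sox17, an endoderm factor, the call rested on 2 lines: it stood at 48.3 and 58.2 TPM in KO and WT cells of 6419c5 and at 0.241 to 0.476 TPM in 6694c2 and 2838c3, while 6499c4 was higher than 6419c5, at 116 and 127 TPM. The count of this list ranged from 3 to 7 when a library or a line was left out.

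**Figure D2:**
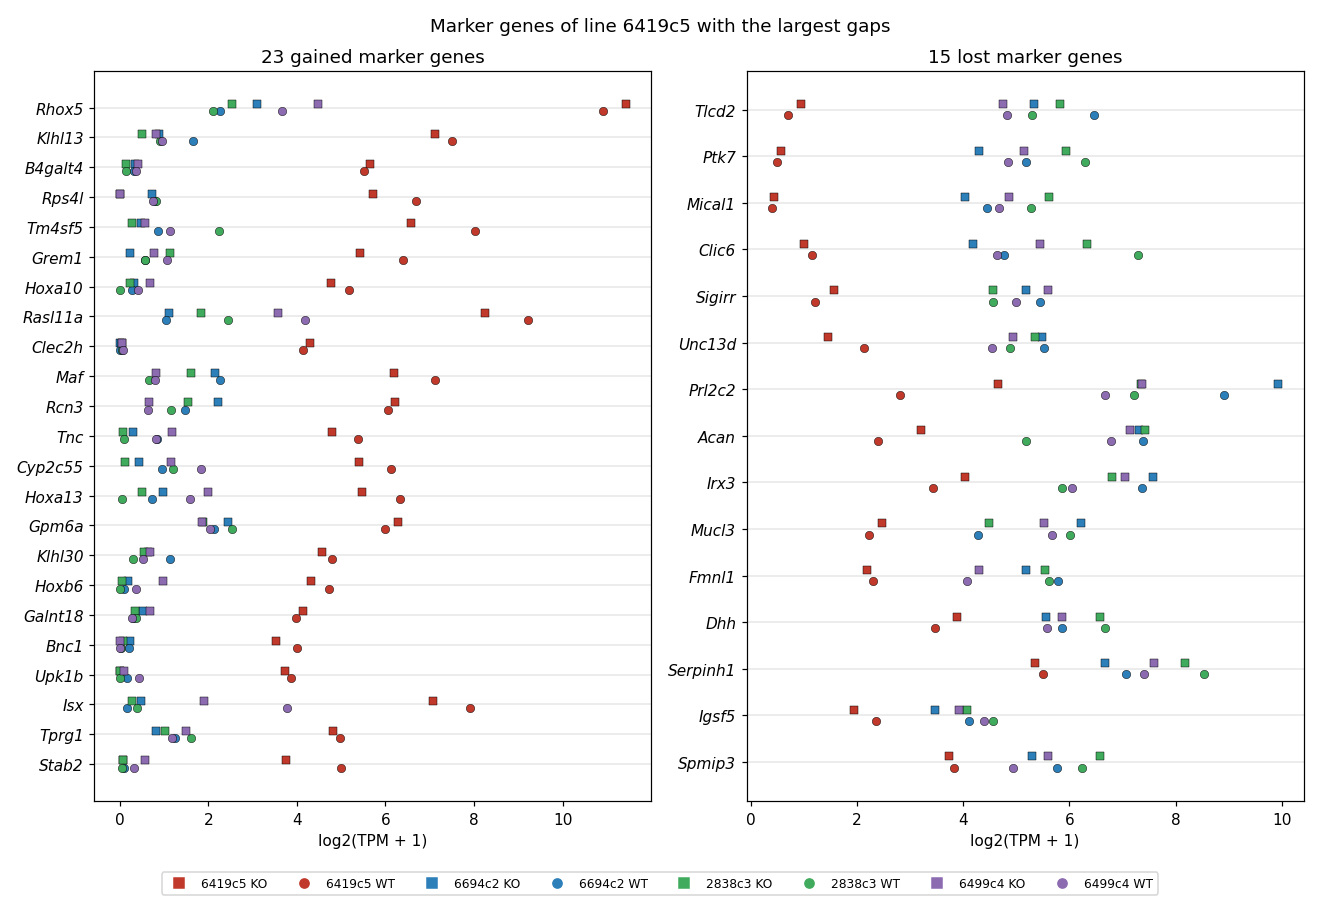
Levels on log2(TPM + 1) (x axis) of 23 gained (left) and 15 lost (right) marker genes with the largest gaps, 1 row per gene, with squares for KO and circles for WT libraries and 1 colour per line. The red points of 6419c5 stand apart from all 6 other points in each row, as the rule requires, with gaps of up to 6.43 for Rhox5 and -3.82 for Tlcd2.

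Maf, a leucine zipper transcription factor of several differentiated tissues, was read at 71.6 TPM (KO) and 137 TPM (WT) in 6419c5, against 0.588 to 3.78 TPM elsewhere (median 1.40). Bnc1, a zinc finger factor known from basal keratinocytes and germ cells, was almost silent elsewhere, at 10.6 TPM (KO) and 15.1 TPM (WT) in 6419c5, against 0 to 0.171 TPM elsewhere (median 0.0340). Rasl11a, a small Ras-like GTPase, was after Rhox5 the most abundant of the 24, at 301 TPM (KO) and 597 TPM (WT) in 6419c5, against 1.07 to 17.3 TPM elsewhere (median 3.49). Its next highest line was again 6499c4, at 10.9 and 17.3 TPM in KO and WT cells.

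Several gained genes encode surface and matrix proteins. Tm4sf5, a membrane protein with 4 transmembrane segments, stood at 94.7 TPM (KO) and 259.6 TPM (WT) in 6419c5, against 0.209 to 3.73 TPM elsewhere (median 0.650). Its level in 6419c5 differed between the libraries by more than that of most gained genes. Upk1b, a uroplakin of the bladder epithelium, stood at 12.3 TPM (KO) and 13.6 TPM (WT) in 6419c5, against 0 to 0.358 TPM elsewhere (median 0.0312), and Gpm6a, a membrane glycoprotein best known from neurons, at 76.7 TPM (KO) and 62.1 TPM (WT) in 6419c5, against 2.64 to 4.75 TPM elsewhere (median 3.24). Stab2, a scavenger receptor for hyaluronan known from liver sinusoids, was read at 12.4 TPM (KO) and 30.8 TPM (WT) in 6419c5, against 0.0298 to 0.488 TPM elsewhere (median 0.0644). None of these genes is known as a marker of pancreatic duct. Clec2h, a lectin-like protein of the gut epithelium that is a ligand of an NKR-P1 receptor, was listed at or near 0 in every other library, at 18.8 TPM (KO) and 16.5 TPM (WT) in 6419c5, against 0 to 0.0585 TPM elsewhere (median 0.0294). Tnc encodes tenascin C, a matrix glycoprotein, and stood at 26.8 TPM (KO) and 40.6 TPM (WT) in 6419c5, against 0.0605 to 1.26 TPM elsewhere (median 0.496). Grem1, a secreted antagonist of bone morphogenetic proteins, stood at 42.3 TPM (KO) and 83.4 TPM (WT) in 6419c5, against 0.171 to 1.19 TPM elsewhere (median 0.603). In the TGF-beta, activin and BMP list, 9 of 34 tested members were higher (26.5%, beside 10.7% of all genes), none was lower and the median was -0.06. Of the 34, 4 passed the filter only through 6419c5, and 6 of the other 30 were higher (20.0%). The count ranged from 3 to 12 when a library or a line was left out. Bmp2, a ligand that Grem1 binds, was among them at 28.8 TPM (KO) and 62.1 TPM (WT) in 6419c5, against 0.0891 to 23.3 TPM elsewhere (median 2.91, log2 difference 3.36 ± 0.46), as was Atoh8, a BMP-responsive transcription factor, at 41.8 TPM (KO) and 95.9 TPM (WT) in 6419c5, against 0.565 to 27.0 TPM elsewhere (median 9.49, log2 difference 2.94 ± 0.16). Fstl1, a secreted follistatin-like protein, stood at 8.73 and 9.98 TPM in KO and WT cells of 6419c5 and at no more than 0.806 TPM elsewhere.

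Metabolic and glycosylation enzymes formed another group. Cyp2c55, a cytochrome P450 known from mouse colon, stood at 41.1 TPM (KO) and 68.5 TPM (WT) in 6419c5, against 0.0785 to 2.58 TPM elsewhere (median 1.08). It belongs to a family of similar genes, and reads of its relatives could not be told apart here. B4galt4, which adds galactose to N-acetylglucosamine, had the largest gap after Rhox5 and Klhl13, at 49.0 TPM (KO) and 44.4 TPM (WT) in 6419c5, against 0.103 to 0.328 TPM elsewhere (median 0.256), and was below 0.4 TPM in every other library. Galnt18, a member of the family that starts O-glycans, stood at 16.6 TPM (KO) and 14.8 TPM (WT) in 6419c5, against 0.215 to 0.6004 TPM elsewhere (median 0.278). B4galnt2, which makes the Sd(a) antigen in the colon, stood at 24.6 TPM (KO) and 34.3 TPM (WT) in 6419c5, against 0.563 to 2.93 TPM elsewhere (median 1.25). In the O-glycan list as a whole 9 of 28 tested members were higher (32.1%) and 2 lower (7.14%), beside 10.7% and 3.04% of all genes, and the median was 0.36. Of the 28, 1 passed the filter only through 6419c5. The lower ones were Galnt12, at 2.37 TPM (KO) and 3.74 TPM (WT) in 6419c5, against 6.54 to 19.8 TPM elsewhere (median 17.0), and Gcnt4, at 5.94 TPM (KO) and 3.58 TPM (WT) in 6419c5, against 7.14 to 12.5 TPM elsewhere (median 8.77). The counts of this list ranged from 1 to 10 higher and from 0 to 5 lower when a library or a line was left out.

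Among the remaining genes of the 24, Rps4l resembles the ribosomal protein gene Rps4x and may share reads with it, so its 51.4 and 102 TPM in KO and WT cells of 6419c5, against 0 to 0.771 TPM elsewhere, are uncertain. Rcn3, a calcium-binding protein of the endoplasmic reticulum, stood at 73.0 TPM (KO) and 66.0 TPM (WT) in 6419c5, against 0.553 to 3.66 TPM elsewhere (median 1.496). Klhl30 reached 22.8 and 26.8 TPM and Tprg1 27.1 and 30.5 TPM in KO and WT cells of 6419c5, against at most 1.20 and 2.07 TPM elsewhere.

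In TPM as deposited the lost genes were fewer, but after median-ratio scaling there were 1020 gained and 1023 lost genes. A gap of at least 1 was reached by 132 gained and 20 lost genes. As for the gained genes, those described are among the 16 of largest gap, with predicted genes skipped. The largest belonged to Tlcd2, a membrane protein with a role in phospholipid composition, at 0.917 TPM (KO) and 0.639 TPM (WT) in 6419c5, against 26.1 to 87.1 TPM elsewhere (median 38.8). Ptk7, a receptor tyrosine kinase-like protein without kinase activity that acts in planar cell polarity, was close to 0 at 0.480 TPM (KO) and 0.412 TPM (WT) in 6419c5, against 18.7 to 77.0 TPM elsewhere (median 34.7). Mical1, an enzyme that oxidises actin filaments, was read at 0.352 TPM (KO) and 0.324 TPM (WT) in 6419c5, against 15.3 to 48.1 TPM elsewhere (median 26.3). All 3 were below 1 TPM in both libraries of 6419c5 and above 10 TPM in every other library.

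Clic6, of the chloride intracellular channel family, stood at 0.998 TPM (KO) and 1.24 TPM (WT) in 6419c5, against 17.3 to 155 TPM elsewhere (median 34.6). Sigirr, an inhibitory receptor of the interleukin-1 and Toll-like receptor family, stood at 1.98 TPM (KO) and 1.32 TPM (WT) in 6419c5, against 22.5 to 47.7 TPM elsewhere (median 33.2), and Unc13d, a priming factor of granule secretion, at 1.75 TPM (KO) and 3.39 TPM (WT) in 6419c5, against 22.4 to 45.1 TPM elsewhere (median 34.7). Acan, the cartilage proteoglycan aggrecan, was read at 8.26 TPM (KO) and 4.25 TPM (WT) in 6419c5, against 35.4 to 171 TPM elsewhere (median 149). Irx3, an Iroquois homeobox factor, stood at 15.3 TPM (KO) and 9.81 TPM (WT) in 6419c5, against 56.9 to 190.0 TPM elsewhere (median 121). Both kept a clear level in 6419c5, unlike Ptk7 or Mical1. Dhh, the ligand desert hedgehog, stood at 13.8 TPM (KO) and 10.0 TPM (WT) in 6419c5, against 46.1 to 100.2 TPM elsewhere (median 57.1), and Serpinh1, the collagen chaperone Hsp47, at 39.8 TPM (KO) and 44.5 TPM (WT) in 6419c5, against 100.2 to 369.5 TPM elsewhere (median 180.5). Fmnl1, an actin-nucleating formin, stood at 3.56 and 3.96 TPM in KO and WT cells of 6419c5, against 15.8 to 53.8 TPM elsewhere. Mucl3 reached 4.56 and 3.71 TPM against 18.4 to 73.6 TPM, Igsf5 2.86 and 4.13 TPM against 10.1 to 22.7 TPM, and Spmip3 12.4 and 13.1 TPM against 29.6 to 94.8 TPM.

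Prl2c2, of the proliferin family, was read at 24.2 TPM (KO) and 6.05 TPM (WT) in 6419c5, against 101 to 974 TPM elsewhere (median 163), but its near-identical relatives may share its reads. In 6419c5 it was more than 2-fold higher in KO than in WT cells, and still below every other library. The list of cholesterol and fatty acid synthesis had 2 of 33 tested members lower (6.06%, where 3.04% of all genes were), none higher and a median of -0.57. The desaturase Scd1 was called, at 241 TPM (KO) and 198 TPM (WT) in 6419c5, against 378 to 791 TPM elsewhere (median 609.7, log2 difference -1.49 ± 0.29). Without the KO library of 6694c2, 11 members were called lower, and without line 6694c2 7 were. Only 1 was without either library of 6419c5, without either library of 6499c4 or without that line.

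At the edges of the rule the levels of gained and overlapping genes were alike. Cpeb4, the gained gene nearest to the minimum of 10 TPM, stood at 10.0 TPM (KO) and 15.6 TPM (WT) in 6419c5, against 4.96 to 9.45 TPM elsewhere (median 8.36), and Nipa1, just short of it, at 10.99 TPM (KO) and 9.94 TPM (WT) in 6419c5, against 7.16 to 9.72 TPM elsewhere (median 9.03). Lpar1 and Cgrrf1 stood on the 2 sides of the minimum for lost genes, at 5.40 and 5.77 TPM and at 8.71 and 6.54 TPM in KO and WT cells of 6419c5. The lowest values elsewhere were 10.0051 TPM for Lpar1 and 9.9997 TPM for Cgrrf1. The smallest gap among gained genes was 0.00011, for Eif3i at 159.7 TPM (KO) and 149 TPM (WT) in 6419c5, against 93.4 to 149 TPM elsewhere (median 113). Fnip1 just overlapped, at 13.6 and 23.1 TPM in KO and WT cells of 6419c5 against 5.87 to 13.6 TPM.

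Most interferon-stimulated genes that passed the filter were higher in 6419c5. Of 32 such members 26 were called higher (81.3%, where 10.7% of all genes were) and none lower, with a median relative log2 difference of 1.53, but 7 of the 32 passed only through 6419c5. Of the other 25 members 19 were called higher (76.0%, where 8.81% of genes that passed in the same way were), with a median of 1.37. In 16 of the 25 (64.0%, where 12.8% did) both libraries of 6419c5 lay above all 6 others. None of the 32 lay below all of them, where 6.88% of all genes did. Their levels in 6419c5 ran from below 1 TPM for Ifitm1 to 611 and 889 TPM for Ifitm2 in KO and WT cells. The rule for gained genes was met by 8 of the members. Rtp4, a chaperone of surface receptors that interferon induces, stood at 11.6 TPM (KO) and 25.4 TPM (WT) in 6419c5, against 0.147 to 5.60 TPM elsewhere (median 0.326, log2 difference 3.15 ± 0.39). Irf7, the transcription factor that amplifies interferon production, stood at 23.5 TPM (KO) and 36.7 TPM (WT) in 6419c5, against 0.621 to 20.8 TPM elsewhere (median 2.63, log2 difference 2.54 ± 0.36). The next highest values of both came from 6499c4, at 5.60 and 20.8 TPM in its KO library. That library was also the highest other one in many further called members, among them Isg15, Xaf1 and Bst2. Oas1a, a sensor of double-stranded RNA, was read at 4.47 TPM (KO) and 10.8 TPM (WT) in 6419c5, against 0 to 0.604 TPM elsewhere (median 0.0708, log2 difference 2.699 ± 0.29), and Xaf1, a pro-apoptotic protein, at 9.03 TPM (KO) and 15.2 TPM (WT) in 6419c5, against 0.4997 to 4.90 TPM elsewhere (median 1.14, log2 difference 2.26 ± 0.31, adjusted p = 0.00496). In TPM the KO library of 6419c5 was lower than the WT library in all 32 members. Over all genes tested the median KO minus WT difference was also below 0, at -0.15 on log2(TPM + 1). Relative to that value the median of the members was -0.43. Some members lay above 0 on that relative scale, among them Bst2 at 0.12 and Stat2 at 0.13.

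Named after their values were seen, Isg15, a ubiquitin-like protein, stood at 10.6 TPM (KO) and 16.1 TPM (WT) in 6419c5, against 0 to 10.5 TPM elsewhere (median 1.56). It cleared the KO library of 6499c4 by a gap of 0.0065. Also outside the rule for named genes, Bst2, a tether of budding virus, stood at 255 TPM (KO) and 259.6 TPM (WT) in 6419c5, against 79.2 to 190.2 TPM elsewhere (median 138). Ifitm3, an inhibitor of virus entry, was called although 6499c4 was higher than 6419c5, with 125 and 129 TPM in KO and WT cells of 6499c4 and 36.0 and 64.1 TPM in those of 6419c5. The 6 members that were not called were Irf9, Stat2, Irf1, Ifitm1, Ifitm2 and Oasl1. Irf9, a DNA-binding factor of the interferon response, stood at 14.0 TPM (KO) and 22.2 TPM (WT) in 6419c5, against 4.19 to 21.7 TPM elsewhere (median 9.80, log2 difference 0.66 ± 0.34, adjusted p = 0.191). Ifit3 and Ifit3b are near-identical copies, so their separate values are uncertain. In bulk RNA, fewer cells with such a transcript and less of it per cell cannot be told apart. Without the WT library of 6419c5 none of 29 members was called, with a median of 1.25, and without its KO library 10 of 29 were, with a median of 1.58. Without the WT library of 6499c4, 18 of 31 were called, and without line terms in the fit 10 of 32.

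**Figure D3:**
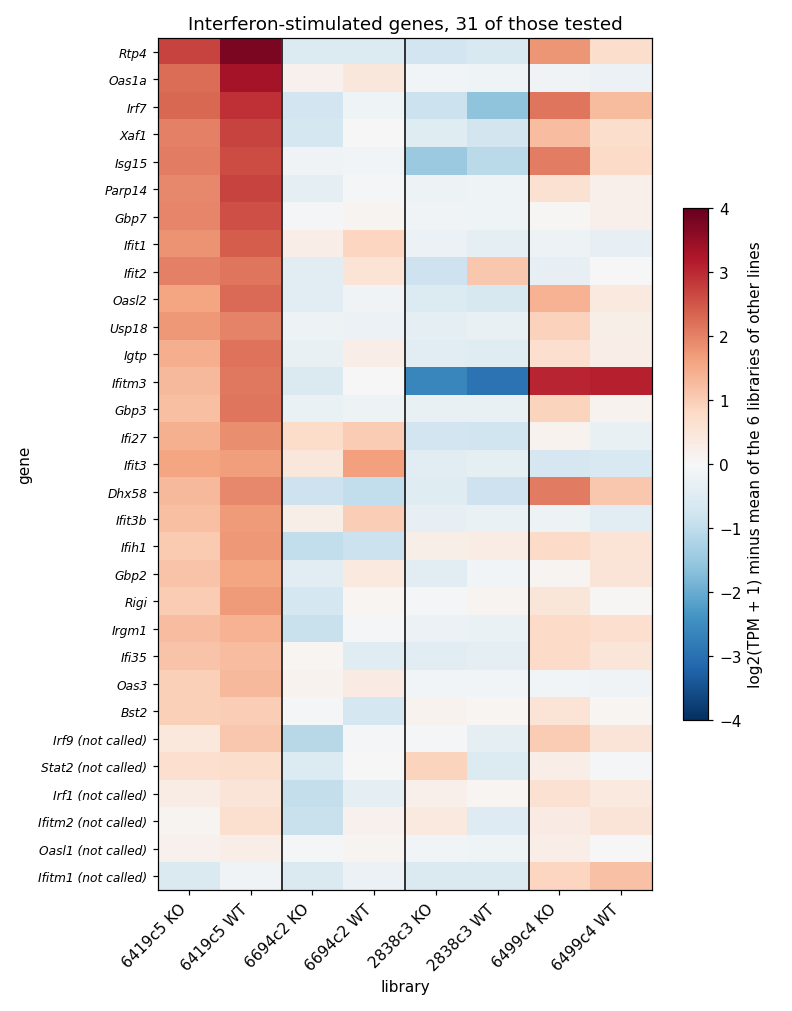
Each row is 1 of 31 interferon-stimulated genes tested and each column a library, with the colour giving log2(TPM + 1) minus the mean of the 6 libraries of the other lines, from -4 (blue) to 4 (red). Both columns of 6419c5 lie above that mean in the 25 called rows. In many of these rows the KO library of 6499c4 is the highest other library, among them Rtp4, Irf7, Isg15, Xaf1, Bst2 and Dhx58. For Dhx58 it held 8.34 TPM, above 4.50 and 7.34 TPM in KO and WT cells of 6419c5.

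Many promoters of these genes hold a pattern like the known interferon-response element, which is given as a description of the sequence. The pattern searched was GAAA, any 2 bases and GAAA again, on both strands. It was present in 16 of the 26 promoters of called members (61.5%) and in 1 of the 6 of members not called, the promoter of Stat2, against 3.34% of 14002 promoters of the same length. Among the 26 were those of Rtp4 (plus strand, chr16:23428396-23428695), Isg15 (minus strand, chr4:156285254-156285553), Ifit1 (plus strand, chr19:34618021-34618320) and Oas1a (minus strand, chr5:121045561-121045860), all on GRCm39. They were chosen after their values were seen, because the pattern lies close to the start in more than 1 copy. They are printed 5′ to 3′ on the gene's strand with the matches in capitals. In Ifit1 the matches are on the other strand and read TTTC, any 2 bases and TTTC.
Rtp4: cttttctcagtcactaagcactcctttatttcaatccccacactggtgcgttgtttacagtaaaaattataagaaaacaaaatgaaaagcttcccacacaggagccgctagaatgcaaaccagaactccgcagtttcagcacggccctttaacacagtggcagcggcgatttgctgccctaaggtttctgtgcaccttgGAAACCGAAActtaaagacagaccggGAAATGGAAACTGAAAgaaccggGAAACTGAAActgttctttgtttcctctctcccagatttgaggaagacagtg
Isg15: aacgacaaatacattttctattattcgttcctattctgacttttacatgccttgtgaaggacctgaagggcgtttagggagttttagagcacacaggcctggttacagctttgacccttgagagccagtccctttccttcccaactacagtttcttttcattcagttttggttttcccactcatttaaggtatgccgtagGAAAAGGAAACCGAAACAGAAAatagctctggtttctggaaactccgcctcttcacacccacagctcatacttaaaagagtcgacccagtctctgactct
Ifit1: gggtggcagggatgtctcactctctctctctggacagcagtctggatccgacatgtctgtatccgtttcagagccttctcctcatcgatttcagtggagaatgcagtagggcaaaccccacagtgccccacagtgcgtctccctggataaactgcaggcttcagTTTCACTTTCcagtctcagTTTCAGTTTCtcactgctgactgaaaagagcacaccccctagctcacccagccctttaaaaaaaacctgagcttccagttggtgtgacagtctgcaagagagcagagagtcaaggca
Oas1a: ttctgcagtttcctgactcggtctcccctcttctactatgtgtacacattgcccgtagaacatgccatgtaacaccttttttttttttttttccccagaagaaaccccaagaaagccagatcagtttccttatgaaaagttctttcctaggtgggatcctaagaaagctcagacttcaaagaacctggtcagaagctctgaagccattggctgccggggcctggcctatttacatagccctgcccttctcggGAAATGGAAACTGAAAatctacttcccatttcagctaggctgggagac
Rtp4 holds 4 matches, Isg15 3, and Ifit1 and Oas1a 2 each. The promoters of Irf7, Xaf1 and 8 other called members held no match in this window.

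Antigen presentation genes moved less. Of 17 tested members of the MHC class I list 7 were higher (41.2%, where 10.7% of all genes were), none was lower (3.04% of all genes were) and the median was 0.48. Of the 17, 1 passed the filter only through 6419c5, and 6 of the other 16 were higher (37.5%). Tap2, a subunit of the peptide transporter, stood at 9.86 TPM (KO) and 17.1 TPM (WT) in 6419c5, against 1.45 to 6.06 TPM elsewhere (median 1.81, log2 difference 1.91 ± 0.26, adjusted p = 0.00512), and the other subunit Tap1 at 1.72 TPM (KO) and 4.21 TPM (WT) in 6419c5, against 0.101 to 1.21 TPM elsewhere (median 0.266, log2 difference 1.29 ± 0.27, adjusted p = 0.0206). Psmb8, an immunoproteasome subunit, was read at 1.04 TPM (KO) and 3.35 TPM (WT) in 6419c5, against 0 to 0.323 TPM elsewhere (median 0.0847, log2 difference 1.35 ± 0.30). H2-M3, a non-classical class I molecule, stood at 17.3 TPM (KO) and 17.1 TPM (WT) in 6419c5, against 1.69 to 15.8 TPM elsewhere (median 3.63), with 6694c2 close behind. H2-Q4 was called at 7.32 and 17.1 TPM in KO and WT cells of 6419c5, but its relatives may share reads and its range overlapped that of 6694c2. The main class I genes, named after their values were seen, were not called: H2-K1 stood at 415 TPM (KO) and 411 TPM (WT) in 6419c5, against 225 to 513 TPM elsewhere (median 399, log2 difference 0.05 ± 0.23, adjusted p = 0.727), and H2-D1 at 513 TPM (KO) and 507 TPM (WT) in 6419c5, against 170.4 to 471 TPM elsewhere (median 401, log2 difference 0.48 ± 0.21). B2m, the light chain of class I and likewise chosen after its values were seen, was called at 592 TPM (KO) and 655 TPM (WT) in 6419c5, against 226 to 588 TPM elsewhere (median 280.4, log2 difference 0.85 ± 0.15). The count fell to 0 without the WT and to 2 without the KO library of 6419c5, and to 4 without line 6499c4 or its WT library. Without line terms in the fit it was 1.

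Ligands of T and NK cells went both ways. Of 18 tested members 7 were higher (38.9%) and 3 lower (16.7%), where 10.7% and 3.04% of all genes were, with a median of 0.73. Of these 18, 3 passed the filter only through 6419c5, and 4 of the other 15 were higher (26.7%). Cd274, which encodes the checkpoint ligand PD-L1, stood at 14.6 TPM (KO) and 25.1 TPM (WT) in 6419c5, against 0.775 to 8.50 TPM elsewhere (median 3.68, log2 difference 2.16 ± 0.29). Raet1d, a stress ligand of the NK receptor NKG2D with near-identical relatives, was read at 9.18 TPM (KO) and 6.94 TPM (WT) in 6419c5, against 0 to 0.369 TPM elsewhere (median 0.0556). Cd55, which protects cells from complement, stood at 37.9 TPM (KO) and 41.5 TPM (WT) in 6419c5, against 4.62 to 19.13 TPM elsewhere (median 11.8, log2 difference 1.80 ± 0.21). The lower members were Cd276, also known as B7-H3, at 23.9 TPM (KO) and 25.8 TPM (WT) in 6419c5, against 28.6 to 57.3 TPM elsewhere (median 45.7, log2 difference -0.90 ± 0.21), the adhesion protein Nectin1 and the tryptophan-degrading enzyme Ido1. Nectin1 was at 0.189 and 0.164 TPM in KO and WT cells of 6419c5 and as low in 6499c4, at 0.117 and 0.084 TPM, so its call rested on the other 2 lines. The counts ranged from 0 to 10 higher and from 0 to 3 lower when a library or a line was left out.

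Among chemokines and myeloid growth factors 7 of 24 were higher (29.2%) and 1 lower (4.17%), where 10.7% and 3.04% of all genes were, with a median of 0.29. Of these 24, 3 passed the filter only through 6419c5, and 5 of the other 21 were higher (23.8%). Cxcl15, a neutrophil chemokine, stood at 9.93 TPM (KO) and 29.2 TPM (WT) in 6419c5, against 0 to 0.856 TPM elsewhere (median 0.504, log2 difference 3.57 ± 0.38), and Csf1, the growth factor of macrophages, at 39.1 TPM (KO) and 42.7 TPM (WT) in 6419c5, against 2.47 to 34.2 TPM elsewhere (median 6.14, log2 difference 2.34 ± 0.49). Cxcl1, another neutrophil chemokine, was shared with 6694c2, at 26.2 and 18.0 TPM in KO and WT cells of 6419c5, 18.97 and 14.4 TPM in those of 6694c2 and at most 0.259 TPM in the other lines. Csf2, which encodes GM-CSF, was the lower one, at 4.66 TPM (KO) and 1.93 TPM (WT) in 6419c5, against 6.83 to 11.7 TPM elsewhere (median 9.43, log2 difference -1.43 ± 0.23, adjusted p = 0.0119). The higher count ranged from 3 to 11 and the lower from 0 to 2 when a library or a line was left out.

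Markers of gastric differentiation and of the classical subtype split in 2 directions, with 10 of 25 higher (40.0%) and 7 lower (28.0%), beside 10.7% and 3.04% of all genes. Of the 25, 2 passed the filter only through 6419c5, and 8 of the other 23 were higher (34.8%). Muc13, a membrane mucin of the gut, stood at 19.23 TPM (KO) and 18.3 TPM (WT) in 6419c5, against 0.0874 to 2.25 TPM elsewhere (median 0.190, log2 difference 3.73 ± 0.30), and Gkn2, a gastrokine of the stomach lining, at 51.4 TPM (KO) and 46.3 TPM (WT) in 6419c5, against 0 to 22.9 TPM elsewhere (median 4.88, log2 difference 3.38 ± 0.51). Ceacam1, an adhesion molecule, was read at 37.4 TPM (KO) and 24.7 TPM (WT) in 6419c5, against 0.223 to 4.45 TPM elsewhere (median 2.67, log2 difference 3.27 ± 0.26). The trefoil factors were lower: Tff2 stood at 4.71 TPM (KO) and 5.47 TPM (WT) in 6419c5, against 1.32 to 346 TPM elsewhere (median 106, log2 difference -2.96 ± 0.23, adjusted p = 8.35e-04). Its lowest values elsewhere, 1.32 and 3.39 TPM in KO and WT cells of 6499c4, lay below 6419c5, and for Tff1, another trefoil factor, the KO library of 6499c4 lay below both libraries of 6419c5, at 28.6 TPM. Cldn18, the claudin of the stomach, was called lower, with 179 and 208 TPM in KO and WT cells of 6499c4 and at most 1.48 TPM in the other 3 lines. The counts ranged from 4 to 11 higher and from 2 to 8 lower when a library or a line was left out.

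Epithelial junction and keratin genes had 8 of 37 tested members higher (21.6%, beside 10.7% of all genes) and none lower, with a median of 0.17. The count ranged from 2 to 12 when a library or a line was left out. Cdh3, the placental cadherin, stood at 37.6 TPM (KO) and 75.9 TPM (WT) in 6419c5, against 0.655 to 13.1 TPM elsewhere (median 2.31, log2 difference 3.67 ± 0.21). Epcam, the adhesion molecule of simple epithelia, is given outside the rule for named genes and was not called. It was read at 27.1 TPM (KO) and 44.9 TPM (WT) in 6419c5, against 1.21 to 25.1 TPM elsewhere (median 6.14, log2 difference 2.38 ± 0.83). The highest value elsewhere was that of the KO library of 2838c3, while its WT library held 1.35 TPM. Cldn3 was called although 6499c4 held its highest values, 233 and 153 TPM in KO and WT cells, against 30.0 and 20.1 TPM in those of 6419c5. The 2 of 19 tested basal-like genes called lower (10.5%, beside 3.04% of all genes) were Krt14, at 6.21 TPM (KO) and 6.51 TPM (WT) in 6419c5, against 5.79 to 309.6 TPM elsewhere (median 16.4, log2 difference -2.13 ± 0.52, adjusted p = 0.0493), and the growth factor Areg, at 47.8 TPM (KO) and 8.65 TPM (WT) in 6419c5, against 21.2 to 194 TPM elsewhere (median 73.2, log2 difference -1.70 ± 0.32, adjusted p = 0.0222). Of the mesenchymal list 4 of 23 were higher (17.4%), among them Acta2, smooth muscle actin, at 33.2 TPM (KO) and 11.6 TPM (WT) in 6419c5, against 1.28 to 2.67 TPM elsewhere (median 1.90, log2 difference 2.73 ± 0.32). None was lower, and the median of the list was 0.07. Of the 23, 2 passed the filter only through 6419c5, and 2 of the other 21 were higher (9.52%, where 8.81% of all genes that passed in the same way were), so the share lay near that of all genes.

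Genes of RAS-MAPK output went both ways, with 5 of 27 higher (18.5%) and 2 lower (7.41%), beside 10.7% and 3.04% of all genes. The immediate-early genes Fosb, at 82.8 TPM (KO) and 48.6 TPM (WT) in 6419c5, against 6.03 to 18.7 TPM elsewhere (median 8.87, log2 difference 2.52 ± 0.34), and Ier2, at 919.6 TPM (KO) and 748 TPM (WT) in 6419c5, against 194 to 361 TPM elsewhere (median 298, log2 difference 1.49 ± 0.17), were higher. Etv4, at 16.4 TPM (KO) and 10.5 TPM (WT) in 6419c5, against 28.7 to 57.1 TPM elsewhere (median 49.7, log2 difference -1.82 ± 0.24), and Dusp4, a phosphatase of MAP kinases, at 61.8 TPM (KO) and 66.0 TPM (WT) in 6419c5, against 98.4 to 240.4 TPM elsewhere (median 180.0, log2 difference -1.42 ± 0.16), were lower. Cdkn2a and Cdkn2b were called higher, although 6694c2 was the only line in which they were low: Cdkn2a stood at 1088 and 1212 TPM in KO and WT cells of 6419c5, at 5.21 and 5.76 TPM in those of 6694c2 and at 519.9 to 1507 TPM in the other 2 lines. Counts of the RAS-MAPK list ranged from 0 to 7 higher and from 0 to 4 lower when a library or a line was left out.

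Growth and hypoxia genes had medians below 0 with almost no call. Over all genes 10.7% were called higher and 3.04% lower. Of 39 genes of DNA replication and G1/S none was called, with a median of -0.63. Of 35 mitotic genes only Kif23 was lower (2.86%, near the share of all genes) and none was higher, with a median of -0.96. The mitotic genes were higher in the KO than in the WT library of 6419c5, with a median difference of 1.01, and lower in the KO library of 2838c3, with a median of -2.94. Without the KO library of 2838c3, 16 G1/S and 29 mitotic genes were called lower in 6419c5, and without the WT library of 6419c5 the mitotic median was 0.12. Kif23 stood at 16.1 TPM (KO) and 9.35 TPM (WT) in 6419c5, against 29.5 to 70.7 TPM elsewhere (median 30.5, log2 difference -1.56 ± 0.35). None of 37 hypoxia and glycolysis genes was called, with a median of -0.42. Hk2, a hexokinase and the one nearest to the threshold, stood at 59.9 TPM (KO) and 59.9 TPM (WT) in 6419c5, against 78.0 to 135 TPM elsewhere (median 99.1, log2 difference -0.81 ± 0.21).

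**Figure D4:**
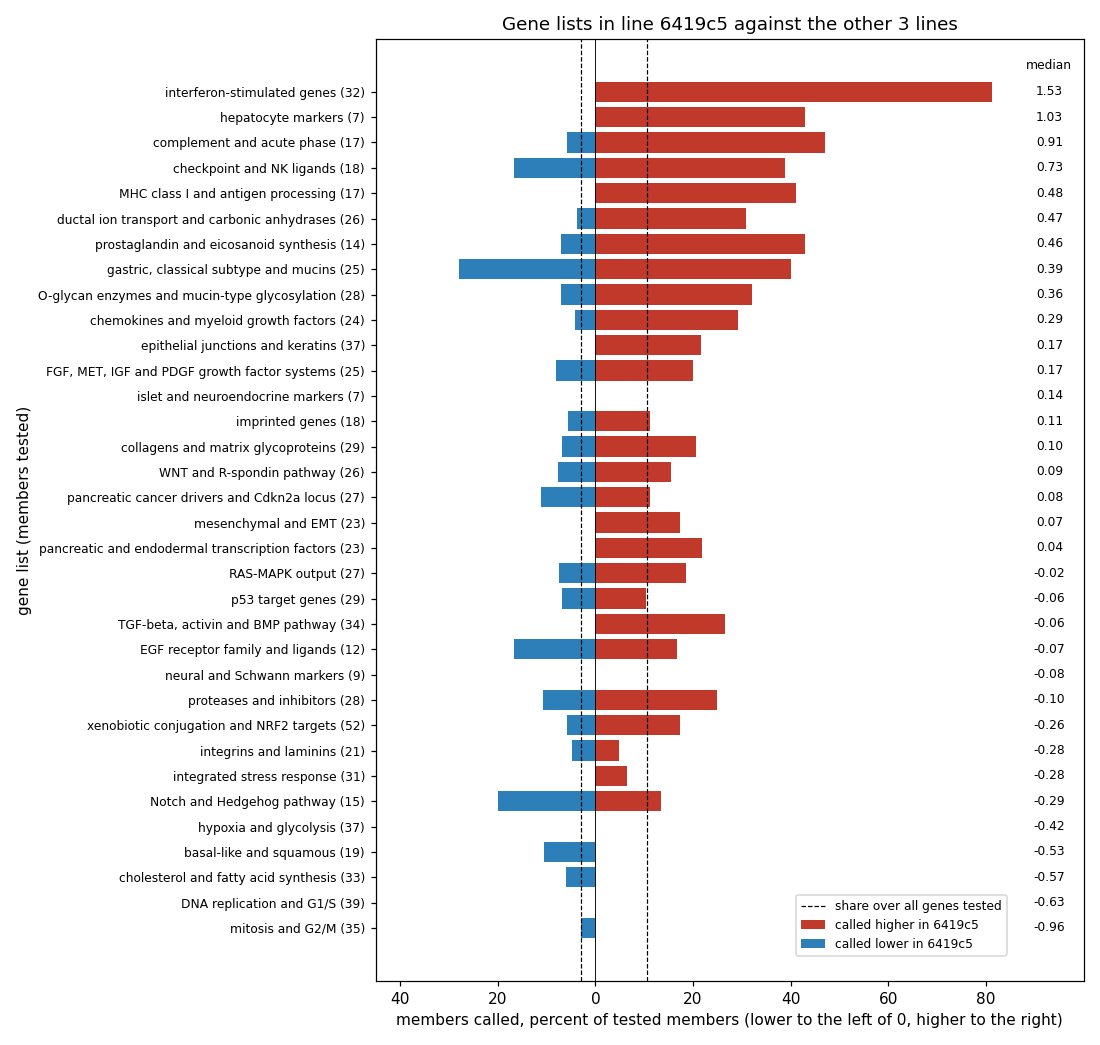
Share of the tested members of each list (rows, with the number tested) called higher (red, to the right) or lower (blue, to the left) in 6419c5, as a percentage on the x axis, with the median relative log2 difference at the right and dashed lines at the shares over all genes tested. Lists with under 5 tested members and the Hox list, most of which passed the filter only through 6419c5, are not drawn, and the interferon list reaches 81.3% higher, where all genes reach 10.7%.

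Further lists held called genes that stood apart. Among proteases and inhibitors 7 of 28 tested members were higher and 3 lower. For prostaglandin synthesis 6 of 14 were higher and 1 lower. Of these 14, 4 passed the filter only through 6419c5, and 3 of the other 10 were higher. The ductal ion transport list had 8 of 26 higher and 1 lower, and the xenobiotic conjugation list 9 of 52 higher and 3 lower. The protease Adamts1 was read at 43.3 TPM (KO) and 34.2 TPM (WT) in 6419c5, against 1.00 to 8.66 TPM elsewhere (median 1.68, log2 difference 3.32 ± 0.22), the serine protease Prss23 at 24.9 TPM (KO) and 37.4 TPM (WT) in 6419c5, against 0.365 to 1.98 TPM elsewhere (median 1.24, log2 difference 3.80 ± 0.24), and Timp3, a matrix-bound protease inhibitor, at 41.7 TPM (KO) and 99.0 TPM (WT) in 6419c5, against 0.732 to 16.8 TPM elsewhere (median 8.72, log2 difference 3.14 ± 0.33). Car8, a protein of the carbonic anhydrase family, was shared with 6499c4, at 163 and 194 TPM in KO and WT cells of 6419c5, 81.7 and 139 TPM in those of 6499c4 and at most 1.71 TPM in the other lines. Hpgd, which inactivates prostaglandins, stood at 10.8 TPM (KO) and 23.999 TPM (WT) in 6419c5, against 0.140 to 2.16 TPM elsewhere (median 0.308, log2 difference 3.40 ± 0.26), and Gstt1, a glutathione transferase, at 229.8 TPM (KO) and 232 TPM (WT) in 6419c5, against 44.4 to 69.9 TPM elsewhere (median 52.8, log2 difference 2.00 ± 0.15). Apob, the structural protein of lipoproteins, stood at 147 TPM (KO) and 195 TPM (WT) in 6419c5, against 6.15 to 84.5 TPM elsewhere (median 52.4, log2 difference 2.19 ± 0.18). Of the lists for other cell types, hepatocyte markers had 3 of 7 higher (42.9%, beside 10.7% of all genes) and none lower. Their median was 1.03, all 7 passed in the other lines, and 1 to 4 were higher when a library or a line was left out. Of 2 acinar markers 1 was lower, and 1 that passed only through 6419c5 was higher. No islet or neural marker was called. Among tested fibroblast, endothelial and immune markers 1 of 4, 1 of 3 and 1 of 3 were higher. They were Gsn, Vwf and Ly6g. Vwf and Ly6g passed the filter only through 6419c5, so they had to stand higher there. Among members that passed in the other lines, 0 of 2 endothelial and 0 of 2 immune markers were higher. Vwf stood at 1.66 and 3.17 TPM and Ly6g at 16.9 and 2.95 TPM in KO and WT cells of 6419c5.

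By position, chromosome 16 stood highest in 6419c5. The median relative log2 difference of its 426 tested genes was 0.45, and 122 of its 313 genes that reached 10 TPM were gained (39.0%), against 13.3% over all chromosomes. Both libraries showed it, at 0.39 in KO and 0.51 in WT cells, against -0.33 to 0.08 in the other 6 libraries. Chromosome 10 followed at 0.33, with 24.7% of its genes gained. On chromosome 7, with a median of 0.20, 27.3% were gained. Chromosomes 14, 12 and 13 were lowest, at -0.36, -0.35 and -0.30. Of their genes 12.4%, 16.5% and 16.9% were lost, against 6.22% over all chromosomes. Chromosome 9, with a median of -0.23, had the largest share lost, at 17.6%. The quartiles of chromosome 16 were 0.18 and 0.78, so the shift was shared by most of its genes, and 83.6% of them lay above the median of all genes. Genes of the mitochondrial genome had a median of 0.62, and they held 3.85% of TPM in the KO and 5.19% in the WT library of 6419c5, against 1.74 to 3.82% in the other 6. DNA was not measured here.

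**Figure D5:**
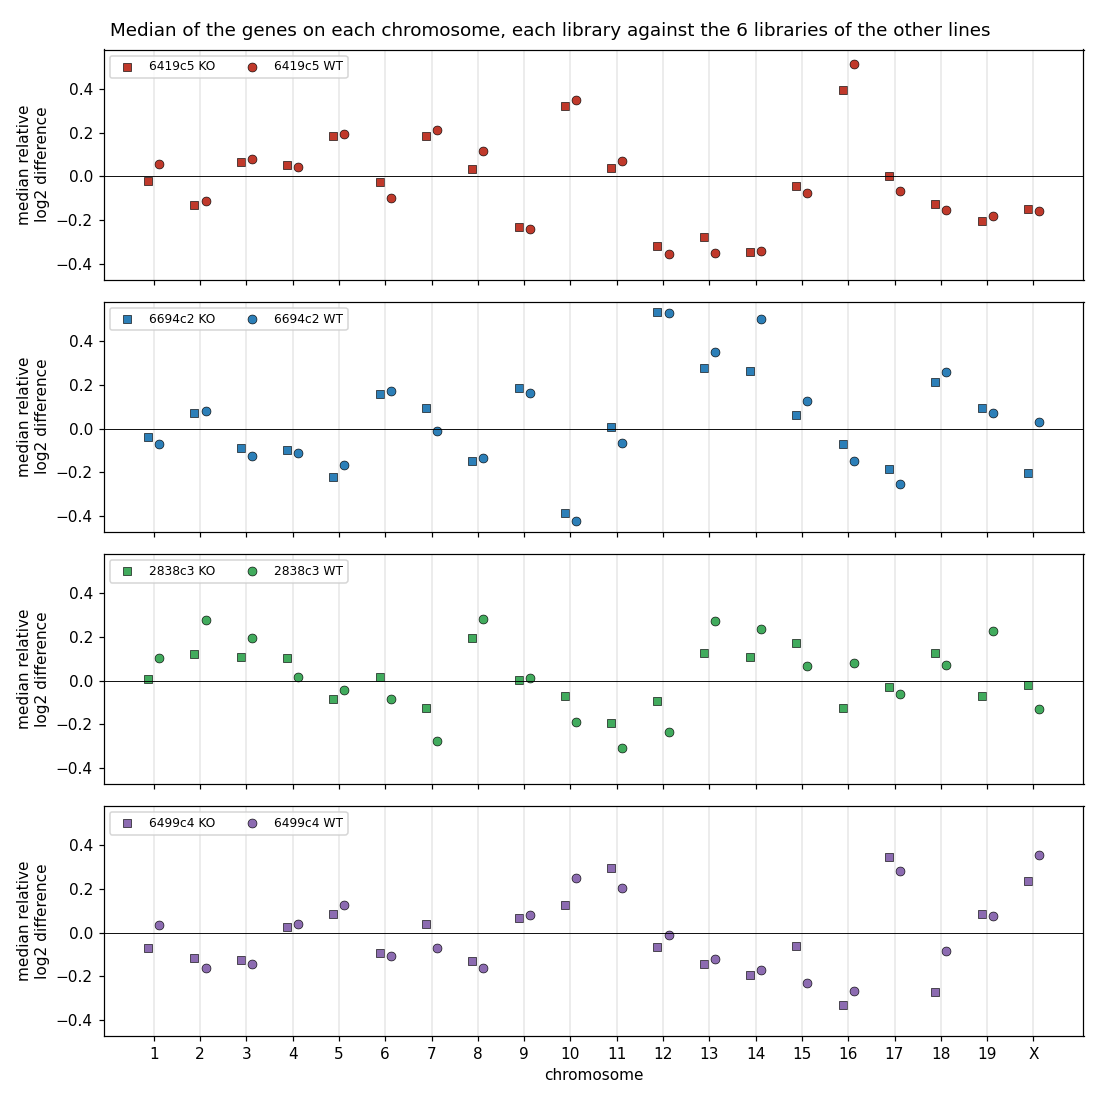
Median relative log2 difference (y axis) of the tested genes on each chromosome (x axis) for the KO (squares) and WT (circles) library of each line, each set against the 6 libraries of the other lines. Chromosome 16 stands at 0.39 and 0.51 in KO and WT cells of 6419c5, and chromosomes 12 to 14 stand below 0 in both.

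No window of 25 neighbouring genes had a median beyond 0.8 in either direction in 6419c5. With windows of 15 genes, 40 lay above and 16 below that limit in 6419c5, against 44 and 2 in 6694c2, 0 and 16 in 2838c3 and 0 and 16 in 6499c4. Overlapping windows past the limit were merged into regions. These included 1 around Hoxa10 and Hoxa13 (chr6:51485937-54574293, GRCm39), with a median of 1.04 over its 19 genes and of 1.46 in its most extreme window, and 1 around B4galt4 and Upk1b (chr16:37360233-38620727), with 11 of its 15 genes gained and a median of 0.84. B4galt4 and Upk1b lie 2.56 kb apart, and Tnfsf15 and Tnc, on chromosome 4, 215 kb apart. Another region, chr10:75186945-76074260, held Gstt1 and Gstt3 among 6 gained genes of 17. Its median was 0.75 over the region and 1.29 in its most extreme window.

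KO minus WT differences of the markers within 6419c5 were mostly below 2-fold. The marker rule required both libraries of 6419c5 to lie beyond every library of the other lines. A gene that differs strongly between KO and WT cells can fail that rule. The comparison with all genes therefore cannot show whether the markers are more stable between genotypes. With 1 library per genotype there is no replicate check, and KO minus WT is given relative to the median of all genes. The median was -0.06 over the 1306 gained genes, of which 16 were at least 2-fold lower and 5 at least 2-fold higher in KO cells. Over the 132 with a gap of at least 1 it was -0.19, with 8 at least 2-fold lower and 1 higher. Over the 59 with a gap of at least 2 it was -0.24, with 4 at least 2-fold lower and 0 higher. Over all genes tested, 1.84% were 2-fold lower and 2.49% 2-fold higher in the KO library of 6419c5. The 610 lost genes had a median of 0.15, with 10 at least 2-fold higher and none 2-fold lower. Chosen after its values were seen, Cpm, a carboxypeptidase of the cell surface, stood at 16.7 TPM in KO and 115 TPM in WT cells of 6419c5 and at 0.22 to 1.93 TPM elsewhere. Cpm was 2.57 lower in KO cells on the relative log2 scale, and its difference in the other lines was between -0.07 and 0.26. The lost gene Prl2c2 was 1.99 higher in KO cells of 6419c5 on that scale.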

How the data were processed

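Polyadenylated RNA of 8 cultures, 4 lines with 1 C1galt1c1-KO and 1 WT library each, was sequenced, per the labels' protocols. The submitters' processing notes name cutadapt 5.1, STAR 2.7.11b, featureCounts 2.1.1, DESeq2 2.11.40.8 and the build mm39. The authors deposited TPM values for 49315 Ensembl identifiers. The step that made TPM from reads is not described in the labels. TPM in every library add up to 1000000, so depth is unknown and no counting interval is given. Gene names, positions and promoters were taken from GENCODE vM39 on GRCm39, which named 45505 identifiers.

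limma 3.58.1 in R 4.3.3 was fitted with a variance trend to log2(TPM + 1) of 14268 genes with at least 1 TPM in at least 2 libraries, with line and genotype as terms. 6419c5 was set against the mean of the other 3 lines, with Benjamini-Hochberg adjustment over all genes tested and a threshold of 0.05. Errors are standard errors of the fit. Tested on simulated data for this contrast, the fit recovered 19% of 100 genes changed by 1 and 73% of 100 changed by 2 on the log2 scale, with 2 false calls. The text names the 24 gained and 16 lost genes of largest gap without predicted genes, genes at the limits of the rule, up to 4 called members per list and direction with 1 not called, and C1galt1c1, and says where a gene was chosen otherwise. Some genes that this rule names are not reported here. Members and lists were chosen with earlier results of these data known. Alternatives were another pseudocount, filters, scalings and fits, and leaving out each library or line. Scripts used Python 3.11.15, pandas 2.3.3, numpy 2.4.6 and matplotlib 3.10.9.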

Additional observations from a re-analysis of the deposited data

Results flagged for a closer look

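Mitotic genes moved against the other lines when KO was set against WT within 6419c5. Over 35 genes the median KO minus WT difference, relative to all genes, was 1.01 in 6419c5, against -0.30 in 6694c2, -2.94 in 2838c3 and -0.15 in 6499c4. With 1 library per line and genotype the difference between lines was not tested. The summed level of these genes was 875 TPM in KO and 479.7 TPM in WT cells of 6419c5, inside the range of 387 to 3423 TPM in the other 6 libraries.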

How the results depend on the processing

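Of 115 called genes named in the text, none changed direction under any alternative run. All 115 were still called under median-ratio scaling, 101 with no filter on low values and 66 without line terms. Most of them were named for large gaps or differences in these data, so they do not stand for all calls. Over all called genes 26.9% of the higher and 9.91% of the lower ones were still called without line terms. Without the WT library of 6419c5, 52 of the 93 that could be tested were called, and without its KO library 65 of 93. The counts were less stable. Genes called higher ranged from 205 to 2087 and genes called lower from 33 to 858 when 1 library was left out. Lower calls were 208 with no filter, 787 after quantile normalization, 278 without line 6694c2 and 739 without line 2838c3. Without line terms 409 were higher and 43 lower. Among genes with at least 1 TPM in at least 2 of the other 6 libraries, a filter chosen after seeing the data, 1202 were higher and 434 lower. Gained genes ranged from 1376 to 2774 and lost genes from 629 to 1056 when 1 library was left out. The marker rule then has fewer values to meet, so these counts could not fall and are no check of stability. Lost genes were 1023 after median-ratio scaling and 945 after quantile normalization, and a gap of at least 1 left 132 gained and 20 lost. Windows of 15 genes gave 40 above and 16 below the limit, and median-ratio scaling with 25 genes gave 3 above. Values near 0 changed sign: C1galt1c1, at -0.12, ranged from -0.27 to 0.0376 when 1 library was left out and stood at 0.0377 without line 6499c4. H2-K1, at 0.05, ranged from -0.0676 to 0.156 when 1 library was left out and stood at -0.22 without line 2838c3. Krt8 stood at 0.0882 after quantile normalization, and Tdrkh at -0.11 without line 6499c4. Where no line or library is named, the cause was not tested. No paired analysis was possible because the labels give no replicate numbers, and genotype, the only feature shared across lines, is a term of the fit. TPM keep no depth, so low values carry an unknown counting error.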
